A study of Drosophila melanogaster with 185 samples.

Results

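The genes described here are 6 components of the Drosophila Ras-MAPK pathway that have been studied in memory after spaced training. They were taken by name (drk, csw, Ras85D, Nf1, Dsor1 and rl) from the 15682 genes of the count tables. Of the 6 genes, 5 were counted and could be tested in at least 1 comparison. The row for rl was 0 in every library.

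Ras-MAPK signalling carries signals from receptor tyrosine kinases into the cell. The adaptor drk, the fly Grb2, brings the exchange factor Sos to activated receptors, and the tyrosine phosphatase csw, the fly SHP2, acts in the same receptor-proximal step. Ras85D is the Ras GTPase itself, Nf1 (neurofibromin) is a GTPase-activating protein that returns Ras to its inactive state, Dsor1 is the MAPK kinase (MEK) and rl is the MAPK (ERK) that Dsor1 phosphorylates. In flies, loss of Nf1 impairs olfactory learning, and csw activity sets how long the rest between training trials must be for long-term memory to form.

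The study measured polyadenylated RNA in single types of mushroom body and associated neurons of flies after olfactory training, and in whole flies and brains. Neurons expressing eGFP under 7 GAL4 lines were drawn one by one into a patch pipette and pooled per library. The study asked which genes change in each neuron type after long-term memory training. The 185 deposited samples are sequencing runs of 101 libraries, of which 72 hold neurons (37 control, 35 trained), 27 hold whole flies and 2 hold brains.

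All driver flies carried 1 GAL4 line crossed to UAS-eGFP. The classes were DAL (G0431-GAL4, 5 control and 5 trained libraries), V2 (R71D08-GAL4, 5 and 5), V3 (CG0239-GAL4, 5 and 5), 3-86 (3-86-GAL4, 6 and 4), R27G01 (R27G01-GAL4, 4 and 4), γ Kenyon cells (NP1131-GAL4, 6 and 6) and α/β Kenyon cells (c739-GAL4, 6 and 6). Per the labels, the libraries of V3, DAL, R27G01 and 3-86 pooled 4 cells each, those of V2 pooled 12, and Kenyon cell libraries of either class held over 100. Training ran over 8 blocks with 10 min of rest between them, each with 1 min of odour and 12 shocks of 60 V. In trained flies the odour came together with the shocks, and in control flies the same shocks came before the odour, so that control flies too were shocked and smelled the odour. The whole flies comprised the 7 driver genotypes (4 libraries each for DAL, γ and 3-86, 3 each for the others) and 3 libraries of UAS-eGFP flies with no driver. The brains came from UAS-eGFP flies.

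Neuron libraries held 1689680 to 22904425 counts, whole-fly libraries 931967 to 16213198, and the brain libraries 1333577 and 2272595. Of the 84 libraries with 2 runs, 81 had runs that agreed within sampling noise, and runs were summed. The other 3 were α/β control library 6, 3-86 trained library 2 and 3-86 control library 3. The chi-square over genes between the runs, divided by its degrees of freedom, was 35.3 in α/β control library 6, whose 2 sample titles differ only in the last digit. In the 3-86 libraries it was 317 and 229.5, while run 2 of the trained library differed from run 1 of the control library by no more than sampling noise (1.065), so that a trained and a control library share matching counts. Without both, 93 of 94 recomputed values on members and pathway genes kept their direction and their side of the threshold or stayed within 1.5 times. The exception was the count of pathway genes called for training averaged over classes. A further library, 3-86 trained library 4, is coded as a control in the submitters' own sheet. DAL control library 2 is coded O in that sheet, where the other 4 DAL controls are coded SO. All 3-86 controls are coded C there, and the listed controls of the remaining classes SO. Whether the controls coded O or C had shocks and odour as described above was not checked. The summed level of 4 neuronal markers (elav, n-syb, brp, Syt1) was 1226 to 10570 CPM (a gene's count over all counts of its library, times 1000000) in control neurons and 21.1 to 178 CPM in driver flies. The summed level of 6 Kenyon cell markers (ey, toy, dac, mub, Pka-C1, rut) was at least 13770 CPM in control γ and α/β libraries and at most 3593 CPM in control libraries of the other 5 classes.

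The MAPK gene rl was listed at 0 counts in all 101 libraries. For a gene whose reads were counted, 0 counts allow up to 0.131 CPM in the deepest library and 3.22 CPM in the shallowest. These limits come from counting error alone (3 counts per library), and apply to rl only if its reads were counted. In the gene order of the Release 6 annotation, rl is the 4th gene with a row in the tables from the start of chromosome arm 2R, and the first 27 such genes, among them Yeti and Maf1, were all at 0 in every library. The 28th, CG17683, had 88840 counts in all, and the 20 genes that start with it were all counted. Over the whole tables, 1296 genes (8.26%) were at 0 in every library. Since rl shares its zeros with its neighbours on the arm, its row is read here as a listed 0, with no level and no test.

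The adaptor drk was counted in every neuron library, at 14.2 to 344 CPM. Among control classes its mean was highest in γ cells, at 173 ± 37.3 CPM (SD, n = 6), and lowest in V3, at 87.3 ± 54.6 CPM (SD, n = 5). The V3 libraries held 58.4, 145, 82.5, 14.2 and 136 CPM, and so overlapped the γ libraries, which held 139 to 230 CPM (median 164). In the Ensembl BDGP6 annotation, 578 bases of drk's exons (19.6%) lie over exons of mars on the opposite strand. Whether the authors' counting used strand is not given in the sources used here, so drk reads and mars reads may not be fully separated. The mean level of mars was 3.34 CPM in control neurons and 29.3 CPM in driver flies.

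The phosphatase gene csw had the highest CPM of the 6 genes in every class mean of the control libraries. In γ cells the 6 control libraries held 1060, 1026, 1094, 950, 1161 and 1177 CPM, a mean of 1078 ± 85.2 (SD). In α/β cells they held 1187, 818, 1154, 907, 889 and 937 CPM, and the 2 Kenyon cell classes overlapped. The spread within a class was far wider outside the Kenyon cells and V2.

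In V2 the control libraries held 852, 1000, 851, 804 and 1010 CPM of csw, while V3 ranged from 444 to 1500 CPM (815, 1500, 818, 444 and 1138) and DAL from 221 to 1252 CPM (444, 221, 769, 686 and 1252), the lowest in DAL control library 2. The lowest classes were R27G01, with 261, 276, 608 and 878 CPM, and 3-86, with 316, 539, 652, 443, 248 and 421 CPM. All 6 control 3-86 libraries lay below all 12 control Kenyon cell libraries. How many of all genes set these libraries apart in this way was not counted, and they also differed in the number of cells pooled. From the highest class mean (γ) to the lowest (3-86) the ratio was 2.47, and 2.74 without the doubtful 3-86 control library 3.

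The GTPase gene Ras85D was highest in V2, where the control libraries held 287, 271, 277, 195 and 289 CPM, and lowest in α/β cells, at 97.8 ± 36.7 CPM (SD, n = 6). In 3-86 its level was scattered over more than 2 orders of magnitude: the control libraries held 628, 169, 340, 166, 15.9 and 1.08 CPM. The coefficient of variation there was 107% (130% without control library 3), against 14.8% in V2.

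The GAP gene Nf1 was the most even of the 5 counted genes in α/β cells, with a coefficient of variation of 6.71%. The α/β control libraries held 229, 233, 215, 202, 238 and 242 CPM. Its highest class mean was in 3-86, at 336 ± 186 CPM (SD, n = 6), or 370 ± 187 CPM (SD, n = 5) without control library 3, where single libraries held 456, 567, 168, 421, 70.7 and 334 CPM. Its lowest was in R27G01, at 165 ± 68.2 CPM (SD, n = 4). The 3-86 libraries spanned the levels of all other control classes save the 59.9 CPM of DAL control library 2.

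The MEK gene Dsor1 was the least abundant, at 0 CPM in 4 of the 37 control libraries and 8 of all 72 neuron libraries. V2 had the highest mean, 58.8 ± 23.2 CPM (SD, n = 5), with libraries at 75.8, 39.2, 90.9, 41.5 and 46.3 CPM. In R27G01 the control libraries held 10.7, 0, 0 and 0.288 CPM. The 4 control libraries at 0 belonged to V3, 3-86 and R27G01, all classes of 4 cells per library, and the floor of 3 counts was at most 1.78 CPM in a neuron library.

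**Figure D1:**
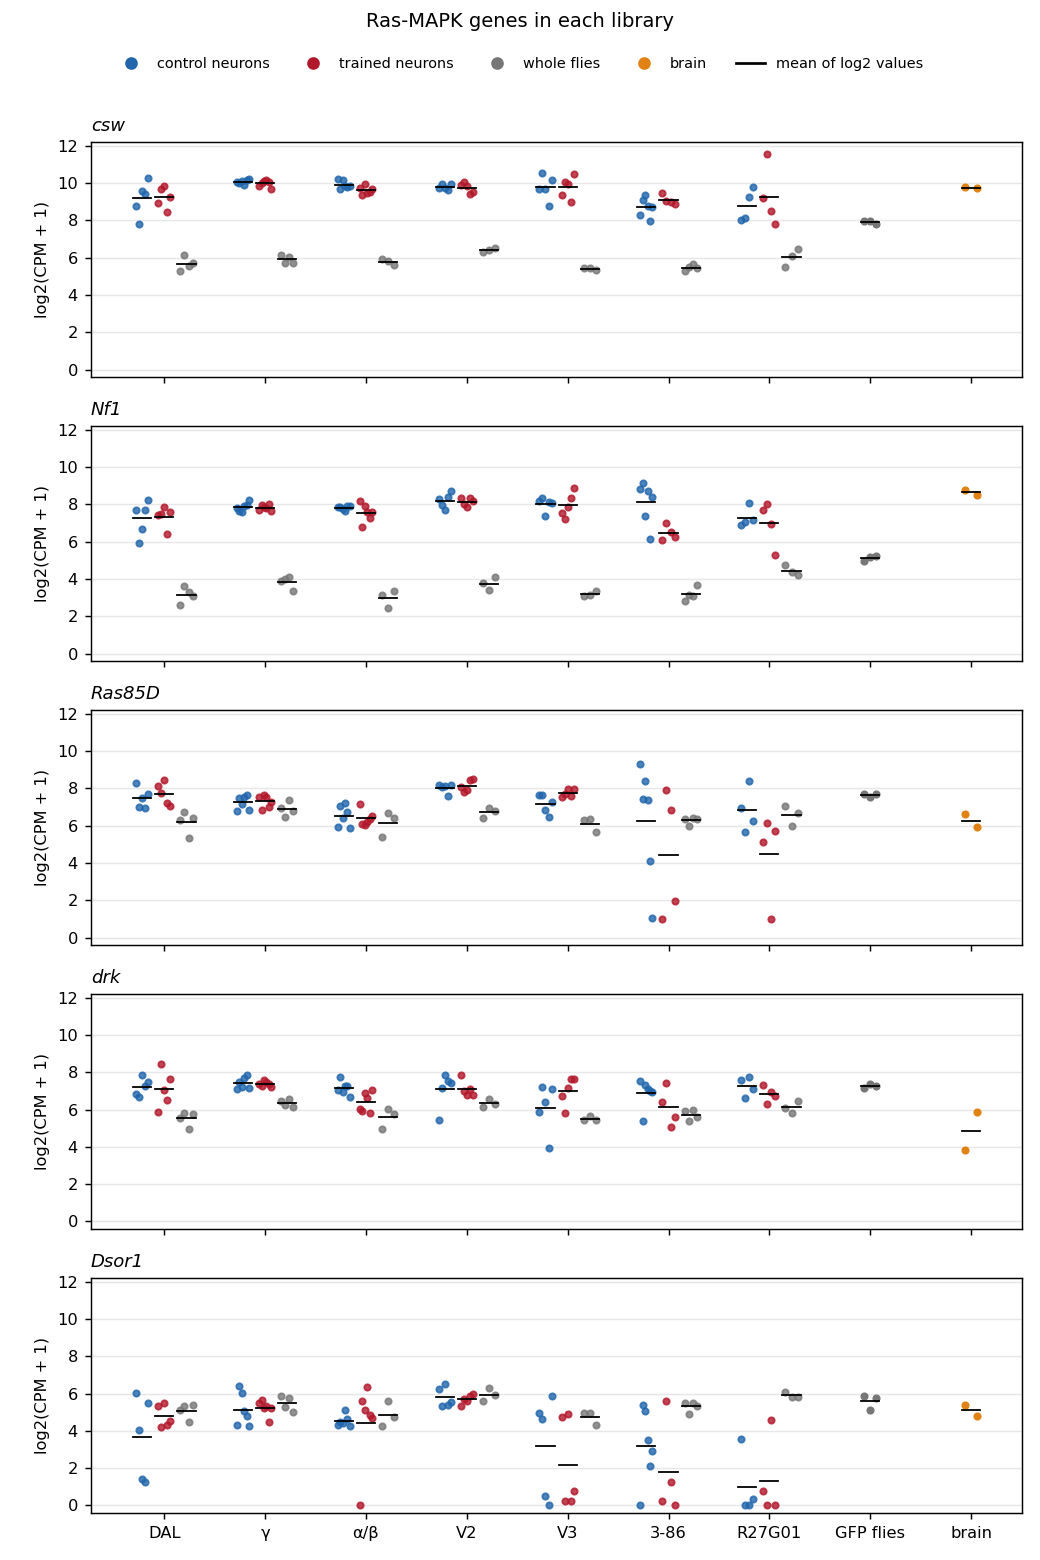
Level of the 5 counted genes in each library, as log2(CPM + 1), for 7 driver lines and for UAS-eGFP whole flies and brains; control neurons are blue, trained neurons red, whole flies grey and brains orange, and each bar is the mean of the log2 values of a group. The csw and Nf1 points of all control neurons lie above those of the whole flies of the same driver, and Dsor1 points lie at 0 in 8 of the 72 neuron libraries.

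Per kilobase of exon, using exon lengths from the Ensembl BDGP6 annotation as an approximation of the counted models, csw and Ras85D had nearly equal levels in control neurons, at 90.4 and 89.1 CPM per kb (means of 7 class means). On the same scale drk followed at 48.6 CPM per kb, Nf1 at 24.2 and Dsor1 at 15.0. In driver flies the order of levels was another, with Ras85D at 45.5 CPM per kb, Dsor1 at 23.4, drk at 20.6, csw at 6.57 and Nf1 at 1.13. The exons used span 8.73 kb for csw and 1.96 kb for Ras85D.

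Control neurons differed from whole flies of the same drivers in all 5 counted genes, 4 of which were higher and 1 lower. With edgeR's quasi-likelihood test and Benjamini-Hochberg adjustment over 10549 genes, 30.2% of all genes were called higher in neurons and 34.3% lower. Nf1 and csw had the larger differences, drk and Ras85D smaller ones, and Dsor1 was lower in neurons. In a bulk library of whole flies, fewer cells of a type and less RNA per cell cannot be told apart.

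Levels of Nf1 ranged from 4.50 to 25.8 CPM in the 24 driver fly libraries (median 9.29) and from 59.9 to 567 CPM in the 37 control neuron libraries (median 238), so the groups did not overlap. The log2 fold change was 4.43 ± 0.19 (SE), a 21.6-fold difference (adjusted p = 1.49e-28, edgeR). For csw the flies held 37.6 to 90.7 CPM (median 52.0) and the neurons 221 to 1500 CPM (median 851). These groups did not overlap either, and the log2 fold change was 3.69 ± 0.15 (SE, adjusted p = 1.61e-30, edgeR), or 12.9-fold.

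The drk flies held 30.0 to 94.4 CPM (median 58.1) and the neurons 14.2 to 231 CPM (median 140). The groups overlapped, with all controls above the flies of their own driver in 4 of 7 classes, and the log2 fold change was 1.22 ± 0.16 (SE, adjusted p = 1.30e-09, edgeR). For Ras85D the flies held 39.1 to 168 CPM (median 83.5) and the neurons 1.08 to 628 CPM (median 154), a log2 fold change of 0.89 ± 0.23 (SE, adjusted p = 0.000596, edgeR). All controls lay above their flies in 3 classes (DAL, V2 and V3). How many of all genes had neurons and flies apart in these ways was not counted.

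Dsor1 ran the other way, at 18.4 to 77.2 CPM in flies (median 40.2) and 0 to 90.9 CPM in neurons (median 21.1), a log2 fold change of -1.06 ± 0.40 (SE, adjusted p = 0.0177, edgeR). Without R27G01 control library 1 it was -1.76 (adjusted p = 3.72e-05). The ranges overlapped in every class but R27G01, where all controls lay below the flies. With DESeq2's size factors in place of TMM, the median over all genes of the log2 fold change moved from 0.01 to -0.90, and the 3190 genes higher and 3620 lower became 2159 and 5118. Under that scaling Nf1 (log2 fold change 3.51), csw (2.77) and Dsor1 (-1.98) were still called, drk was 0.30 (adjusted p = 0.0842) and Ras85D was -0.03 (adjusted p = 0.999). Relative to the median of all genes, drk was higher by 1.21 and Ras85D by 0.89 on the log2 scale with TMM, and by 1.20 and 0.87 with size factors. Since a change of scaling moves all genes nearly alike, this likeness follows by construction and tests nothing. With Kenyon cells alone on the neuron side, Ras85D (log2 fold change 0.34, adjusted p = 0.507) and Dsor1 (-0.34, adjusted p = 0.726) were not called. Without 3-86 control library 3 all 5 members were called, at 4.46 for Nf1, 3.68 for csw, 1.22 for drk, 0.88 for Ras85D and -1.10 for Dsor1, and 52 other pathway genes were.

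The 4 neuronal markers were higher in neurons too: their sum had a median of 60.2 CPM in driver flies and 5521 CPM in control neurons. Per 100 CPM of these markers, csw stood at 14.5 ± 4.12 CPM in neurons (SD, n = 37) and 107 ± 43.5 CPM in flies (SD, n = 24), and Nf1 at 4.97 ± 3.16 and 20.3 ± 10.5 CPM. The part of neuronal content in the neuron and fly difference was not tested. The UAS-eGFP brains, with no test at n = 2, held 880 and 858 CPM of csw, 436 and 364 CPM of Nf1, 97.5 and 59.4 CPM of Ras85D, 13.5 and 57.6 CPM of drk and 40.5 and 27.3 CPM of Dsor1. Both csw and Nf1 were thus within the range of the control neurons and above all whole flies. For drk and Ras85D, both brains lay below the UAS-eGFP flies (142 to 162 and 184 to 207 CPM), and for Dsor1 the 2 groups overlapped. The UAS-eGFP flies were not in the test of neurons against flies. Their drk and Ras85D levels lay above the control neuron medians of 140 and 154 CPM, so the higher neuron levels of these 2 genes hold against driver flies only.

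Of 73 other Ras-MAPK and parallel MAPK genes grouped by role, 72 were tested, with 32 called higher and 16 lower in neurons, against 30.2% and 34.3% of all genes. Their median log2 fold change was 0.62, beside 0.01 for all genes. With DESeq2's size factors the counts were 25 higher and 29 lower. The inhibitors held 5 genes that rose and 1 that fell among 6, and the Ras-like GTPases with their exchange factors and GAPs 8 that rose and none that fell among 11.

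Among the called genes with the smallest p-values, Spred, an inhibitor of Ras activation, rose from a mean of 9.35 CPM in driver flies to 721 CPM in control neurons (log2 fold change 6.09 ± 0.19, SE). The kekkon gene kek1, an inhibitor of the EGF receptor, rose from 9.46 to 423 CPM, and the Ras-like GTPase gene Ric from 27.6 to 854 CPM. The gene for jeb, the ligand of the Alk receptor, rose from 9.87 to 1577 CPM. Genes that fell included tor, the receptor of the embryonic termini, from 23.9 to 0.104 CPM, and stet, a rhomboid protease of the germ line, from 140 to 1.71 CPM. The importin gene msk, whose product carries activated MAPK into the nucleus, fell from 362 to 51.8 CPM, and mts, a catalytic subunit of PP2A, had a log2 fold change of -1.29 ± 0.13 (SE).

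In the other lists, 2 receptors rose and 3 fell among 8, 8 ligand and ligand-processing genes rose and 4 fell among 17, and 1 receptor-proximal adaptor or kinase rose and 1 fell among 4. The Raf-MEK-ERK module had 3 genes that rose and 3 that fell among 10, effectors 2 and 0 among 6, and the parallel MAPK cascades 3 and 4 among 10.

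**Figure D2:**
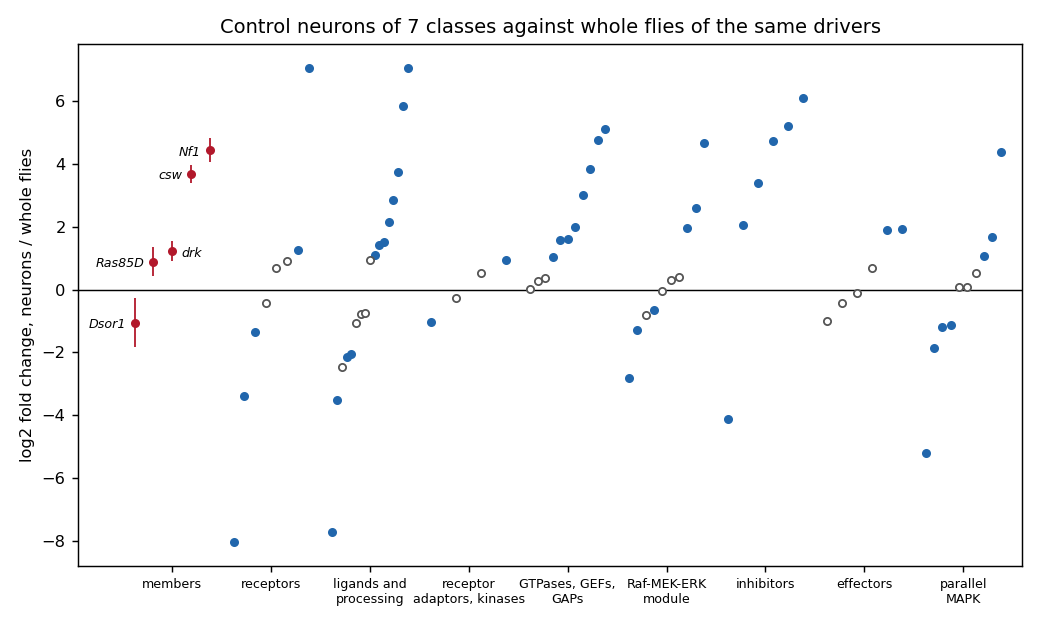
Log2 fold change of control neurons over whole flies of the same drivers for the 5 counted members (red, with bars of 95% intervals) and for the 72 tested pathway genes by role; filled points have an adjusted p under 0.05 and open points do not. Nf1 at 4.43 and csw at 3.69 stand well above the other members, and 5 of the 6 inhibitors lie above 0.

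Between the 7 classes of control neurons, csw was the only member that passed the F test (adjusted p = 0.0024, edgeR), where 34.9% of 9168 genes tested were called. The other 4 counted members had adjusted p from 0.349 (drk) to 0.798 (Ras85D). The csw call held without 3-86 control library 3 (adjusted p = 0.00279). It was lost with each class taken relative to the flies of its own driver (adjusted p = 0.344) and with libraries scaled on the 4 neuronal markers (adjusted p = 0.550). With γ and α/β set against the other 5 classes, csw was higher in Kenyon cells. The 12 Kenyon cell libraries held 818 to 1187 CPM (median 1043, mean 1030 ± 127 SD), and the 25 others 221 to 1500 CPM (median 686, mean 690 ± 336 SD).

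The 2 ranges of csw overlapped, and the log2 fold change was 0.81 ± 0.18 (SE, adjusted p = 0.000432, edgeR), beside a background of 17.5% of genes called higher and 14.3% lower. None of the other members was called, with log2 fold changes of -0.46 ± 0.35 for Ras85D, 0.11 ± 0.22 for Nf1, 0.40 ± 0.25 for drk and 0.92 ± 0.68 for Dsor1 (SE). Without R27G01 control library 1, Dsor1 was called too (log2 fold change 1.77, adjusted p = 0.0291). With each class taken relative to the flies of its own driver, csw was 0.63 higher on the log2 scale and not called (adjusted p = 0.110). Without 3-86 control library 3 it was 0.83 higher and called (adjusted p = 0.000385).

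Marker levels moved with the same split. The neuronal marker sum was 6094 to 10570 CPM in Kenyon cells (median 7865) and 1226 to 7446 CPM in the other classes (median 4783), while the sum of 6 fat body genes (Yp1, Yp2, Yp3, Lsp2, Rfabg, Fbp1) was 78.2 to 1560 CPM in Kenyon cells and 2708 to 78730 CPM in the others. Per 100 CPM of neuronal markers, csw was 13.3 ± 3.00 CPM in Kenyon cells (SD, n = 12) and 15.1 ± 4.50 CPM in the others (SD, n = 25). When libraries were scaled on the 4 neuronal markers, csw was lower in Kenyon cells by a log2 value of -0.20 and not called (adjusted p = 0.398, edgeR). This scaling, a choice made after seeing the data, moved the median of all genes from 0.11 to -0.90 on the log2 scale. Under that scaling Nf1 (log2 fold change -0.97, adjusted p = 0.000679) and Ras85D (-1.56, adjusted p = 0.00306) were called lower. Over all genes 2718 were called lower and 695 higher, and the Nf1 value lay near the median of all genes. Relative to the median of all genes, csw stood 0.69 higher in Kenyon cells with TMM and 0.70 higher with marker scaling. A change of scaling moves all genes by nearly the same amount, so these values are alike by construction and test nothing. Kenyon cell libraries also held more cells than those of the other classes. The parts of cell number and of neuronal and fat body RNA in the csw difference were not tested.

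**Figure D3:**
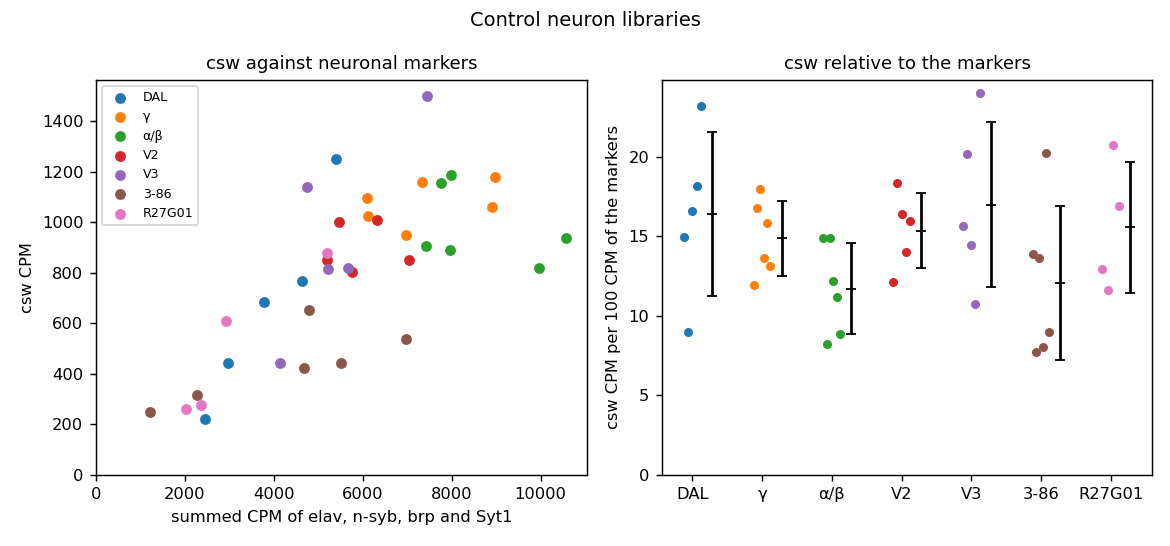
Level of csw in the 37 control neuron libraries: at left, csw CPM against the summed CPM of elav, n-syb, brp and Syt1, and at right, csw CPM per 100 CPM of these markers by class, with the mean and SD. At left the Kenyon cell points (γ, α/β) lie at 818 CPM and above with marker sums of at least 6094 CPM, and at right the 7 classes overlap.

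Each class was next compared with the average of the remaining 6. The csw level was higher in γ (log2 fold change 0.69 ± 0.22 SE, adjusted p = 0.0256, edgeR), where 9.95% of genes were called higher, and in α/β (0.65 ± 0.22 SE, adjusted p = 0.0339), where 11.7% were. These values were 0.71 in γ (adjusted p = 0.0232) and 0.67 in α/β (adjusted p = 0.0300) without 3-86 control library 3. The level was lower in 3-86 (-0.93 ± 0.25 SE, adjusted p = 0.00586), where 5.66% of genes were called lower. No member was called in DAL (10.7% of genes called in either direction), V2 (4.28%), V3 (5.8%) or R27G01 (16.9%). The nearest were Dsor1 in R27G01, with a log2 fold change of -2.99 ± 1.35 (SE, adjusted p = 0.127, edgeR), and drk in V3, with -0.96 (adjusted p = 0.134).

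The γ and α/β calls were lost when certain single control libraries were left out. The γ call was lost without γ library 1, 5 or 6, α/β library 1, 2, 3, 4 or 5, or R27G01 library 1 or 2, with csw log2 fold changes of 0.49 to 0.68 (adjusted p = 0.0614 to 0.205). The α/β call was lost without γ library 6, any of the 6 α/β libraries, or R27G01 library 1 or 2, at 0.46 to 0.66 (adjusted p = 0.0599 to 0.228). The 3-86 call held whichever control library was left out, at -1.02 to -0.80 (adjusted p = 0.00188 to 0.0217), with -1.02 without the doubtful library 3 (adjusted p = 0.0066). Other settings ended these csw calls. With marker scaling the log2 fold change was 0.03 in γ (adjusted p = 0.995), -0.37 in α/β (adjusted p = 0.259) and -0.32 in 3-86 (adjusted p = 0.313). Relative to the flies of each driver it was 0.69 in γ (adjusted p = 0.309), 0.36 in α/β (adjusted p = 0.800) and -0.51 in 3-86 (adjusted p = 0.422). With control and trained libraries together it was 0.41 in γ (adjusted p = 0.0675) and 0.22 in α/β (adjusted p = 0.408), and the 3-86 value was not called with limma voom (-0.84, adjusted p = 0.177). Without R27G01 control library 1, the one R27G01 control with more than 1 CPM of Dsor1, Dsor1 was called lower in R27G01 (adjusted p = 0.00413). Without 3-86 control library 5 or γ control library 6, Nf1 was called higher in 3-86 (log2 fold change 0.76 and 0.72).

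Of the 21 pairs of classes, csw differed in 4, where 9.42% of all tests over genes and pairs were called. It was higher in γ than in 3-86 (log2 fold change 1.39 ± 0.31, SE) and R27G01 (1.11 ± 0.35), and higher in α/β than in 3-86 (1.36 ± 0.31) and R27G01 (1.08 ± 0.35). These p-values were adjusted within each pair. Without 3-86 control library 3 the same 4 pairs were called, at 1.49 for γ and 1.45 for α/β over 3-86. These pairs also differ in title code, the leading digits of the last field of a library's title. The code was 2 to 6 in control libraries of 3-86 and R27G01, and 8 to 12 in those of the other classes. Libraries of 3-86 and R27G01 also pooled fewer cells than Kenyon cell libraries. In these pairs class cannot be told apart from title code or cell number, and the parts of both were not tested. Neighbours in the order of csw levels were not called apart. The other 4 counted members were called in 0 of 21 pairs each. Between α/β and γ, where 0.0218% of genes were called, no member was, and the smallest p belonged to Ras85D, at a log2 fold change of -0.56 ± 0.57 (SE), with csw at -0.04 ± 0.31.

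Among the other pathway genes 68 were tested between classes, and 20 were called higher and 1 lower in Kenyon cells than in the other 5 classes, with a median log2 fold change of 0.63 beside 0.11 for all genes. Without 3-86 control library 3 the number called was 22, and with marker scaling the counts were 4 higher and 11 lower. The 14-3-3 gene 14-3-3zeta, whose product binds Raf, was highest in both Kenyon cell classes, at 15410 ± 2560 CPM in γ and 15410 ± 2186 CPM in α/β (SD, n = 6 each), against 3061 ± 1178 CPM in R27G01 (SD, n = 4). Its log2 fold change between Kenyon cells and the others was 1.95 ± 0.14 (SE), and 0.85 under marker scaling. The MAPK phosphatase gene Mkp3 (1.86 ± 0.19), kek1 (1.80 ± 0.18) and Spred (1.32 ± 0.19) rose too, and Ras64B, a second Ras gene, fell (-1.28 ± 0.43, SE). Spred was not called with marker scaling (0.17, adjusted p = 0.574).

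Over all 7 classes 19 of these 68 genes (27.9%) passed the F test, beside 34.9% of all genes, and 22 did without 3-86 control library 3. Set against the other 6 classes, 12 rose and none fell in γ, where 9.95% of all genes were called higher and 6.51% lower. In α/β 11 rose and none fell (11.7% and 7.25% of all genes). In 3-86 3 rose and 8 fell (15.4% and 5.66%), with 14 called without control library 3, and in R27G01 2 rose and 9 fell (11.1% and 5.87%). The numbers called were 12 in γ, 12 in α/β and 11 in R27G01 without 3-86 control library 3. Single control libraries lowered these counts by over 1.5 times. In γ 7 genes were called without γ library 4 and 5 without γ library 6, in α/β 6 without α/β library 2 and 7 without α/β library 5, and in R27G01 6 without R27G01 library 1 and 5 without R27G01 library 2. In γ the repressor gene cic rose (1.37 ± 0.29, SE), and in α/β R, the fly Rap1, rose (1.04 ± 0.21, SE), which was -0.08 under marker scaling. Both cic (-1.28 ± 0.36, SE) and kek1 (-1.39 ± 0.27, SE) fell in 3-86. In R27G01 jeb (-1.71 ± 0.42, SE), Rala (-1.93 ± 0.61, SE) and mts (-1.01 ± 0.33, SE) fell. The Rala call was lost without R27G01 control library 2 (adjusted p = 0.0585), and the mts call without R27G01 control library 1 (adjusted p = 0.182) or 2 (adjusted p = 0.162). The mts log2 fold change was -0.86 relative to the flies of each driver (adjusted p = 0.188), -1.09 with limma voom (adjusted p = 0.125) and -0.31 with marker scaling (adjusted p = 0.659).

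Several of the other named calls were of sparse genes. The EGF receptor gene Egfr was at 0 CPM in all V2 control libraries and called lower there, and called higher in 3-86 (mean 19.8 ± 16.3 CPM, SD, n = 6) and R27G01 (30.0 ± 36.6 CPM, SD, n = 4). The p38 gene Mpk2 was called higher in R27G01 (36.4 ± 26.0 CPM, SD) and DAL (7.15 ± 15.7 CPM, SD), and boss, a ligand of the Sevenless receptor, in DAL, V3 and 3-86 at means of 5.16 to 7.64 CPM. The FGF gene pyr was at 0 CPM in all DAL controls and called lower there, and called higher in 3-86 (3.73 ± 8.90 CPM, SD). In DAL the exchange factor gene Sos was lower, at 4.46 ± 3.66 CPM (SD), and kek1 was lower, at 170 ± 35.0 CPM (SD). Epac was called higher in V2 (553 ± 259 CPM, SD), a call lost in 27 of 37 cases when 1 library was left out, and C3G lower in V3 (41.2 ± 26.6 CPM, SD). The log2 fold change of Mpk2 in DAL turned to -2.33 without DAL control library 4, that of boss in V3 to -3.01 without V3 control library 5, and that of pyr in 3-86 to -2.63 without 3-86 control library 5. The pyr call in 3-86 was lost in 13 of 37 cases when 1 library was left out. Single libraries of the class itself also ended the calls of boss in DAL (library 2 or 4), Sos in DAL (2, 3 or 4), C3G in V3 (1, 4 or 5), and Egfr in V2 and pyr in DAL (any of the 5 in each).

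Training was tested within each class, between the flies that had the odour with the shocks and those that had it after them. In the fits of single classes no gene was called by edgeR, so that the background was 0% in each, and none of the 34 tests of members was called. At an unadjusted p under 0.05 the counts over all genes were 136 in DAL, 440 in γ, 198 in α/β, 393 in V2, 100 in V3, 185 in 3-86 and 133 in R27G01. DESeq2 called 55, 6, 2, 95, 20, 105 and 211 genes in the same order, none of them a member. A fit of all 14 neuron groups, which shares 1 estimate of spread over the classes, called 427 genes in R27G01, 96 in 3-86, 2 in DAL and 0 in the other 4 classes. Without the filter on low counts 2 genes were called in α/β, 1 in V2 and 2 in R27G01. Control and trained libraries did not separate completely in any of the 35 pairs of a member and a class. The share of all genes that separate so was not computed.

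Of the 34 tests of members, 2 had an unadjusted p under 0.05. The larger of these 2 training differences was that of Nf1 in 3-86. The 4 trained libraries held 66.3, 126, 90.1 and 76.4 CPM of Nf1, and the 6 controls 456, 567, 168, 421, 70.7 and 334 CPM. All trained libraries lay below 5 of the 6 controls, and control library 5 lay among them. The log2 fold change was -1.94 ± 0.68 (SE, unadjusted p = 0.00816, adjusted p = 0.999, edgeR). Of all genes tested in 3-86, 16.6% had a larger absolute log2 fold change.

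In the fit of all 14 neuron groups the Nf1 difference in 3-86 was -1.85 on the log2 scale and was called (adjusted p = 0.0137, edgeR). That fit called 96 of 9847 genes in 3-86. It shares 1 estimate of spread over the classes and keeps trained library 2 and control library 3. In the fit of 3-86 alone the Nf1 difference was -2.18 without these libraries and not called (adjusted p = 0.683, edgeR), and -2.23 without trained library 4 as well. Leaving out any single library gave -2.12 to -1.68. The neuronal marker sum was 1257 to 3257 CPM in the trained 3-86 libraries and 1226 to 6976 CPM in the controls, and the fat body sum was 20420 to 42710 CPM and 13060 to 74630 CPM. Per 100 CPM of neuronal markers Nf1 was 3.81 ± 1.72 CPM in trained (SD, n = 4) and 8.70 ± 5.79 CPM in control libraries (SD, n = 6), with overlapping ranges. The part of neuronal content in this difference was not tested.

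The other difference with an unadjusted p under 0.05 was that of drk in α/β cells. The trained libraries held 56.1 to 134 CPM (median 81.2) and the controls 102 to 213 CPM (median 142). The groups overlapped, and the log2 fold change was -0.71 ± 0.30 (SE, unadjusted p = 0.0264, adjusted p = 0.999, edgeR). Of all genes tested in α/β, 18.0% had a larger absolute log2 fold change. In γ cells drk held 150 to 193 CPM in trained and 139 to 230 CPM in control libraries.

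In the remaining classes the member with the smallest p was Ras85D in DAL (log2 fold change 0.23 ± 0.41, SE), csw in γ (-0.23), Dsor1 in V2 (-0.24), Ras85D in V3 (0.60) and csw in R27G01 (1.19 ± 0.63, SE). With title code (the leading digits of the last field of a library's title) as an added term, the value of Ras85D in DAL turned to -0.017 and that of Dsor1 in V2 to 0.28. The csw difference in R27G01 rested on trained library 2: the trained libraries held 578, 3061, 369 and 226 CPM, and the controls 261, 276, 608 and 878 CPM. Without that library the log2 fold change was -0.17. Over all members, the log2 fold changes lay between -0.15 and 0.23 in DAL, -0.23 and -0.08 in γ, -0.71 and 0.58 in α/β, -0.24 and 0.09 in V2, -0.94 and 0.85 in V3, -1.94 and 0.37 in 3-86 and -1.65 and 1.19 in R27G01.

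Averaged over the 7 classes, 0.884% of 9847 genes were called for training, and no member was among them. These 87 genes became 1221 with DESeq2, 238 without 3-86 trained library 2 and control library 3, 24 with the title code as an added term and 2 with limma voom. Nf1 had the smallest p of the members, with a log2 fold change of -0.35 ± 0.15 (SE, adjusted p = 0.296, edgeR) and adjusted p between 0.128 and 0.670 over the alternatives run. Beside it, Ras85D was at -0.36 ± 0.26, drk at -0.18 ± 0.17, Dsor1 at -0.02 ± 0.51 and csw at 0.12 ± 0.13 (SE). The 95% intervals around these averages ran from -0.64 to -0.07 for Nf1 and from -0.15 to 0.38 for csw, so a csw change of 1.5-fold in either direction lay outside the interval, while for Dsor1 (-1.02 to 0.97) it did not.

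Whether the training difference varied between classes was tested as an interaction. It was called for 1.24% of genes and for no member, with adjusted p of 0.172 for Nf1, 0.298 for csw and 0.685 or more for the others (edgeR). The 122 genes called became 416 with DESeq2, 275 without the 2 doubtful 3-86 libraries, 23 with the title code and 4 with limma voom. Of 71 other pathway genes tested, 0 were called in the averaged test, 2 without the 2 doubtful 3-86 libraries, and 1, the Pvr ligand gene Pvf2, in the interaction (adjusted p = 0.046), from a mean of 7.11 ± 14.2 CPM in trained 3-86 libraries (SD) and below 1 CPM in the other 13 neuron groups. That call was lost in 16 of the 40 cases in which 1 library was left out and a value was had.

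**Figure D4:**
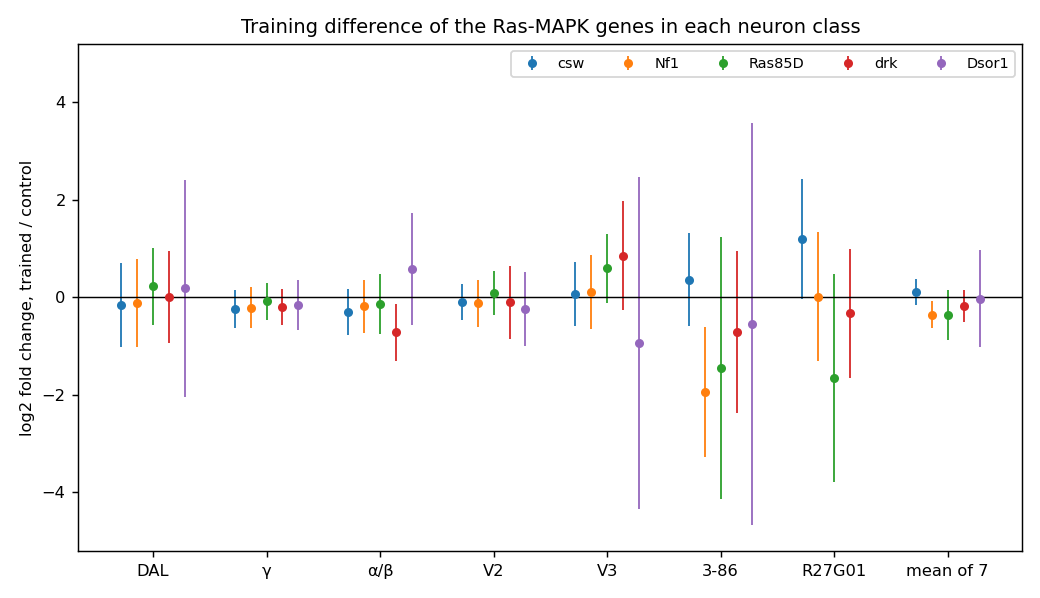
Log2 fold change of trained over control libraries for the 5 counted genes in each class and for the mean of the 7 classes, with bars of 95% intervals; Dsor1 was not tested in R27G01. The Nf1 point in 3-86 at -1.94 and the drk point in α/β at -0.71 are those whose bars stay below 0 within a class.

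Between the 8 whole-fly genotypes, 31.5% of genes were called, and csw (adjusted p = 0.00634, edgeR) and Dsor1 (adjusted p = 0.00356) were among them. For csw the UAS-eGFP flies held 246, 251 and 220 CPM, above every driver fly. Among driver flies csw ran from 41.6 ± 2.12 CPM in the V3 driver to 84.4 ± 6.19 CPM in the V2 driver (SD, n = 3 each). The csw call was lost without UAS-eGFP whole-fly library 2 (adjusted p = 0.0561).

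For Dsor1 the highest mean was that of the V2 driver flies, at 61.3 ± 14.7 CPM (SD, n = 3), and the lowest that of the V3 driver flies, at 26.3 ± 6.47 CPM (SD, n = 3). UAS-eGFP flies, at 47.9 ± 12.5 CPM (SD, n = 3), lay between them. Ras85D (184 to 207 CPM), Nf1 (30.5 to 36.3 CPM) and drk (142 to 162 CPM) also had their highest fly levels in the UAS-eGFP flies, although none of them passed the test. The neuronal marker sum was 207 to 248 CPM in UAS-eGFP flies and 21.1 to 178 CPM in driver flies, and its part in the csw difference was not tested. Of 71 other pathway genes 19 were called between genotypes (12 without UAS-eGFP whole-fly library 1, and 12 without library 2), led by 14-3-3epsilon, 14-3-3zeta, the Ras GAP gene CG42684 and the JNK pathway kinase gene slpr.

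Genes whose pattern over the 14 neuron group means was most like that of each member were sought among 6206 genes of at least 10 CPM, by Pearson's r of log2(CPM + 1). For csw they were Ccn (r = 0.899), CG34394 (0.892) and CG34028 (0.889), and for Nf1 they were Drl-2 (0.935), Pur-alpha (0.920) and CG10984 (0.914). For Ras85D they were CG4972 (0.960), CG42678 (0.934) and CG7222 (0.930). For drk they were CG17082 (0.803), krz (0.793) and CG8270 (0.772), and for Dsor1 lawc (0.934), CG8248 (0.926) and RN-tre (0.926). Between the members themselves r ran from -0.20 (Ras85D and csw) to 0.59 (Ras85D and Nf1). These values describe 14 means that share driver lines and cell numbers, and the best of so many genes is high by selection.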

How the data were processed

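Per the submitters' processing notes, the authors used cutadapt, TopHat2, Bowtie, Bowtie2, HTSeq and DESeq2 1.4 with the BDGP5 build; which step used which, and whether counting used strand, is not given in the sources used here. The deposited values are whole-number read counts per gene, not normalized, from cDNA amplified with the SMARTer kit, so no count is a molecule. Runs of one library were summed here, giving 101 libraries from 185 samples. The 2 samples of α/β control library 6, whose titles differ only in the last digit and whose counts differed beyond sampling noise, were counted as 1 library. With them as 2 libraries, edgeR called 0 genes for training in α/β and 92 (beside 87) for training averaged over classes. The labels do not state whether libraries are separate flies, so a p-value reflects only how far libraries differ, which may be technical. CPM were computed here from the summed counts. Levels per kilobase use exon lengths of another build than the files'.

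Genes passing filterByExpr were tested with edgeR 4.0.16 (TMM, robust glmQLFit, glmQLFTest, 2-sided) and called at an adjusted p under 0.05 (Benjamini-Hochberg over all genes tested), in R 4.3.3. The SE of a log2 fold change is its size over the square root of F. Training was fitted per class, class differences over the 37 control libraries, and neurons against flies over 14 groups of 61 libraries. Fitting was tested on simulated data.

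Named genes were the 6 members; for training, members with unadjusted p under 0.05 or else the smallest p; of the other pathway genes, in each direction at most 4 called genes, by p; and for likeness the 3 highest r. The members and lists were chosen with earlier results of these data known. Alternatives were DESeq2's size factors, DESeq2 1.42.0, no filter on low counts, leaving out each library, other sets of libraries and fits, an added term for the leading digits of the last field of the library title (title code), limma 3.58.1 voom with group weights, controls and trained libraries together, and classes relative to their flies. Marker scaling, the submitters' grouping letter and leaving out 3-86 trained library 4 along with the 2 doubtful 3-86 libraries were added after seeing the data. No sequences were used here.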

Additional observations from a re-analysis of the deposited data

Results flagged for a closer look

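Of 85 groups of 4 to 10 libraries checked over the 5 counted genes, 9 held a library whose gap to the nearest other was large for the range of its group, and chance gives about 1 in 20. The csw level of R27G01 trained library 2 was 3061 CPM, where the other 3 trained libraries held 226 to 578 CPM, and per 100 CPM of neuronal markers it was 69.1 CPM there. Nf1 was 265.8 CPM in R27G01 control library 3 and 118 to 142 CPM in the other 3.

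Dsor1 was set apart in 3 groups of sparse values. It was 47.83 CPM in 3-86 trained library 2, one of the libraries whose runs did not match, and 0 to 1.41 CPM in the others. In R27G01 it was 22.57 CPM in trained library 3 and 0 to 0.692 CPM in the others, and 10.65 CPM in control library 1 and 0 to 0.288 CPM in the others.

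Ras85D was 140.9 CPM in α/β trained library 1 (64.5 to 90.6 CPM in the others), 195.1 CPM in V2 control library 4 (271 to 289 CPM) and 63.19 CPM in 3-86 whole-fly library 2 (80.7 to 84.0 CPM). The adaptor drk was 234.1 CPM in V2 trained library 1 and 108 to 138 CPM in the other 4.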

How the results depend on the processing

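No paired analysis was possible by replicate number because the numbers only name libraries and pair no control library with a trained one. In the submitters' sheet a grouping letter is shared by some control and trained libraries. With it as an added term for training in DAL, γ, α/β, V2 and V3, no gene and no member was called (unadjusted p under 0.05 in 184, 436, 242, 405 and 135 genes). The number of members called stayed within 1.5 times its value in 714 recomputed counts and moved in 52. It moved as follows, and the causes were not tested. For the F test over classes (1 member) it was 0 relative to driver flies, 2 with voom and 3 with marker scaling (Nf1, Ras85D and drk, not csw). For Kenyon cells against the other 5 classes (1) it was 0, 2 and 2 in the same order (Nf1 and Ras85D with marker scaling). Over all genes 2912 were called in that comparison, 5686 with voom and 3413 with marker scaling. For the other class comparisons the counts over all genes under the alternatives are not given here. For γ (1) it was 0 with control and trained libraries together, 0 relative to flies, 2 with voom and 0 with marker scaling, and for α/β (1) it was 0, 0, 2 and 2 (Nf1 and Ras85D). For 3-86 (1) it was 0 relative to flies, 0 with voom and 2 with marker scaling (Nf1 and Ras85D). For R27G01 (0) it was 1 with control and trained together, with voom, with DESeq2 and with marker scaling. It was 1 in V2 with voom, 1 in V3 with DESeq2 and 1 for training in 3-86 in the fit of 14 groups (96 genes in all), against 0 in each. For neurons against flies (5) it was 3 with size factors, with Kenyon cells alone and with DESeq2. Over all genes 6810 were called in that comparison, 7277 with size factors and 7911 with DESeq2.

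Leaving out 1 library gave 1 to 2 members for the F test over classes, for Kenyon cells against the others, for 3-86 and for whole-fly genotypes, and 0 to 1 for γ, α/β and R27G01. In the fits of 14 groups only libraries of groups of up to 5 were left out. Signs changed for Ras85D in DAL training (-0.017) and Dsor1 in V2 training (0.28) with title code as a term, for csw in Kenyon cells (-0.20), csw in α/β (-0.37) and R in α/β (-0.077) with marker scaling, for pyr in 3-86 with voom (-0.48), and for Ras85D in neurons against flies (-0.0286 with size factors and -0.0286 with DESeq2). With 1 library left out they changed for csw training in R27G01 (-0.17 to 1.54), Mpk2 in DAL (-2.33 to 4.82), boss in V3 (-3.01 to 4.55) and pyr in 3-86 (-2.63 to 3.54).

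Counts at or near 0 limit Dsor1, and rl has no level.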
